A study of Mus musculus with 8 samples.

Results

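The genes described here encode the proteasome, the cylinder-shaped protease that degrades ubiquitin-tagged proteins, in bone marrow mesenchymal stem cells (MSC) of NOD and BALB/c mice. A gene was taken when its mouse symbol began with Psm, a letter from a to g and a digit, and when an array probe carried its gene ID in the probe name. This gave 29 probes for 25 genes, of 8107 genes with a named probe on the array. One of the 25, Psme3ip1, encodes a partner of a proteasome activator and is no subunit, so it was kept apart, which left 24 proteasome genes with 28 probes.

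MSC are adherent stromal cells that can form bone, cartilage and fat. There were 4 cultures from NOD mice, a strain that develops autoimmune diabetes, taken while blood glucose was normal, and 4 from BALB/c mice of the same age, a strain without the disease that served as the reference. Each culture was hybridised to 1 single-colour Illumina array. All groups share the culture in serum-containing medium to passage 4. The series text says that marrow of at least 5 mice was combined per culture, whereas the sample titles name 1 mouse each. A step with interleukin-1 beta is described for the study, but no array is labelled as treated. Nothing shows that the cultures of a strain came from separate pools of mice. The p-values therefore set the strain difference against the spread among these cultures within each strain, which may not be a spread among mice.

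In the 20S core particle, rings of alpha subunits (Psma genes) gate the entry and rings of beta subunits (Psmb genes) hold the catalytic sites. The 19S regulatory particle, built from ATPases (Psmc genes) and non-ATPase subunits (Psmd genes), binds ubiquitin chains, unfolds the substrate and opens the gate. In cells exposed to interferon gamma, and constantly in leukocytes, the catalytic subunits Psmb8, Psmb9 and Psmb10 are built in place of Psmb5, Psmb6 and Psmb7 to form the immunoproteasome, and the PA28 activator of Psme1 and Psme2 can cap the core. The immunoproteasome is known for making peptides that are presented on MHC class I molecules.

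Levels are log2 normalized probe intensities, listed in the order of cultures 1 to 4 where 4 values are given for a strain. Otherwise they are given as mean ± SD of 4 arrays, and differences are NOD minus BALB/c each with its fitted standard error (SE). A probe counted as detected on an array when its deposited detection p-value was under 0.05. A gene was tested when a probe was detected on at least 4 of the 8 arrays, and it was called when limma's p-value, adjusted by Benjamini-Hochberg over 17775 probes, was under 0.05. Median raw signal was 56.5 to 74.9 on the BALB/c arrays and 68.7 to 78.6 on the NOD arrays, and 36.1% to 39.3% of probes were detected. NOD arrays correlated with each other at 0.927 to 0.985. BALB/c cultures 1 and 4 correlated at 0.983, whereas cultures 2 and 3 correlated with each other at 0.842, and culture 2 with none of its strain above 0.871. Between strains the correlations were 0.811 to 0.905. Of 7 MSC marker genes with a named probe, 5 or 6 were detected on each array. The collagen genes Col1a1 and Col3a1 and the adhesion gene Vcam1 were among them on all 8, while Cxcl12 was detected on none. Cd44 lay near background (5.43 ± 0.34 in BALB/c and 5.70 ± 0.40 in NOD). Of the 6 tested, Vcam1 (difference 1.14 ± 0.20 SE) and Col1a2 (1.21 ± 0.31 SE) were called higher in NOD, where 4.12% of all named genes tested were. Neither of the 2 endothelial marker genes with a probe was detected.

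Most proteasome genes had close levels in both strains, and 3 differed. Of 23 tested proteasome genes, Psmb10 was lower in NOD MSC, and Psmd8 and Psmc1 were higher. Psmc1 was detected on 1 of 4 BALB/c arrays, passed the detection filter through the NOD arrays, where it is high, and did not pass in 10 of 19 other fits. These 3 are 13.0% of those tested. Among all 4225 named genes tested 9.11% were called (4.12% higher, 4.99% lower), so the share of proteasome genes called lies near that of the array, and no statement on the group as a whole is drawn from it. The median difference of the 23 genes was 0.00, against -0.02 over all named genes tested. An absolute difference under 0.5 was read for 20 of the 23 (87.0%), and for 59.8% of all named genes tested. The median SD among the 4 cultures of a strain was 0.24 in BALB/c and 0.19 in NOD for the tested proteasome genes, against 0.44 and 0.26 for all named genes tested. The remaining gene, Psma5, an alpha ring subunit, was detected on no array by its single probe (5.24 ± 0.15 in BALB/c and 5.39 ± 0.16 in NOD) and could not be tested.

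**Figure D1:**
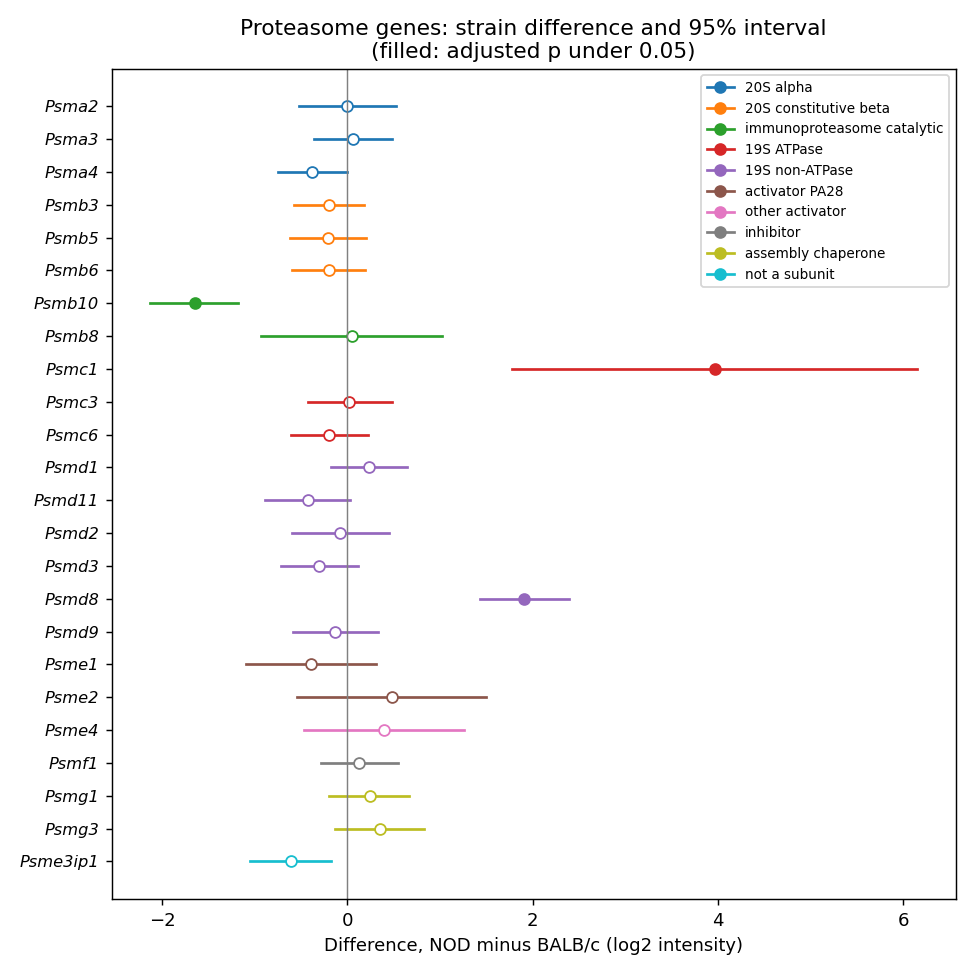
Difference in log2 intensity, NOD minus BALB/c (x axis), for the 23 tested proteasome genes and Psme3ip1 (y axis, ordered and coloured by role); bars are 95% intervals of the limma fit and filled points mark adjusted p under 0.05. Psmb10 lies at -1.65, Psmd8 at 1.91 and Psmc1 at 3.97 with the widest interval, while all others lie between -0.61 and 0.48.

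The sequences before the gene starts are shown for the 3 called genes and for Psmb8, since Psmb10 and Psmb8 are both known to be induced by interferon gamma. Each is the 250 bases upstream of the RefSeq start on assembly GRCm38.p6, written from 5′ to 3′ on the gene's strand, with capitals on a match to one of 3 motifs.
Psmb10, chr8:105938393-105938642, minus strand: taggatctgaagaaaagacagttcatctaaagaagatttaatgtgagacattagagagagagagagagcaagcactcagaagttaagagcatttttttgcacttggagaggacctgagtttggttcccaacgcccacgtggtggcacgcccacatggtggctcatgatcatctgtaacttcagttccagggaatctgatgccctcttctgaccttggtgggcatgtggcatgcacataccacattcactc
Psmb8, chr17:34197945-34198194, plus strand: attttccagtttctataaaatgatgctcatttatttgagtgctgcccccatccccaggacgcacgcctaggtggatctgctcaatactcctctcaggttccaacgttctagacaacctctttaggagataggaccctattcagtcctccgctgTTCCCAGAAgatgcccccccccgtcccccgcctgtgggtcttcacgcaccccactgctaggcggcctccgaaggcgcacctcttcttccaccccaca
Psmd8, chr7:29180674-29180923, minus strand: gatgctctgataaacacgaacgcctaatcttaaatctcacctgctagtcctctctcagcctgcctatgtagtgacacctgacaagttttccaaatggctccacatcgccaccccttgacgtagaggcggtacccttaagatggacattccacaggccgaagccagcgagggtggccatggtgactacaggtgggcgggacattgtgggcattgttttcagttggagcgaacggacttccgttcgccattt
Psmc1, chr12:100109952-100110201, plus strand: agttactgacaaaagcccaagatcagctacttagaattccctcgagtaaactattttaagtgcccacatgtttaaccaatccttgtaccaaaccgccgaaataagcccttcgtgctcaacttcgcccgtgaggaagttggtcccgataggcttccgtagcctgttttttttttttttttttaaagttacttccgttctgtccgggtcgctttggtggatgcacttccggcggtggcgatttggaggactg
The motifs, searched on both strands, were the antioxidant response element core TGACNNNGC, the interferon-stimulated response element core (GAAA, any 2 bases, GAAA) and the gamma-activated site TTCNNNGAA, which do not contain one another. Of these 4 windows, only that of Psmb8 held a match, TTCCCAGAA at 97 to 89 bases before the start. Such a gamma-activated site was found in 7.02% of 32851 promoters of RefSeq genes, the interferon-stimulated core in 2.98% and the antioxidant core in 10.2%. Of 22 proteasome genes with a promoter in the table, 2, 2 and 4 held the respective motif, the antioxidant core being found at Psmb5, Psmb6, Psmc6 and Psmd9. A match is a run of letters and not a tested site.

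The core particle was read by 3 alpha and 3 constitutive beta genes, and none of the 6 was called. The alpha subunit gene Psma2 read 13.71 ± 0.40 in BALB/c and 13.71 ± 0.13 in NOD (difference 0.00 ± 0.23 SE, 95% interval -0.52 to 0.52). Psma3, another alpha subunit, read 13.43 ± 0.23 and 13.49 ± 0.11 (difference 0.06 ± 0.18 SE). A second Psma3 probe was detected on no array (4.86 ± 0.04 and 4.83 ± 0.04), so the gene's level rests on 1 of its 2 probes.

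Psma4, also of the alpha ring, had the most negative difference of the core. It read 13.08, 13.00, 13.20 and 12.91 for BALB/c and 12.77, 12.51, 12.73 and 12.66 for NOD. Every NOD culture lay below every BALB/c culture, but the difference of -0.38 ± 0.17 SE did not pass (adjusted p = 0.198, limma). It was one of 3 tested proteasome genes whose arrays did not overlap between strains, 13.0%, with Psmb10 and Psmd8. Among all named genes tested 18.9% did not overlap.

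The constitutive beta genes lay slightly to the same side. Psmb5, which holds the chymotrypsin-like site and gives way to Psmb8 in the immunoproteasome, read 10.83 ± 0.09 in BALB/c and 10.62 ± 0.22 in NOD (difference -0.21 ± 0.18 SE, 95% interval -0.62 to 0.20). Psmb6, which holds the caspase-like site and gives way to Psmb9, read 13.04 ± 0.18 and 12.83 ± 0.11 (difference -0.20 ± 0.17 SE, 95% interval -0.60 to 0.19). Psmb3, a beta subunit without a catalytic site, read 13.20 ± 0.15 and 13.00 ± 0.09 (difference -0.20 ± 0.17 SE). None of the 3 was called (adjusted p = 0.487 to 0.510, limma), and their intervals leave room for a change of either sign. For Psmb7, the third catalytic subunit, which Psmb10 replaces, no probe was named, so that pair could not be set side by side.

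The immunoproteasome subunit with the trypsin-like activity, Psmb10, had less signal in NOD MSC. BALB/c arrays gave 10.74, 11.17, 11.34 and 10.94, and NOD arrays gave 9.54, 9.52, 9.06 and 9.47. The groups did not overlap, and the gap between them was wider than the range within either. The means were 11.05 ± 0.27 and 9.40 ± 0.23, a 3.14-fold lower intensity (difference -1.65 ± 0.21 SE, 95% interval -2.13 to -1.18, adjusted p = 0.00186, limma). In the authors' deposited table of normalized intensity the BALB/c values were 1933, 2758, 2615 and 2080, and the NOD values were 885, 878, 680 and 892. The call held in all 20 alternative fits, with differences of -1.88 to -1.44 and adjusted p of 1.83e-05 to 0.0414. A sequence difference between the strains under its single probe was not tested.

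Psmb8, the immunoproteasome subunit with the chymotrypsin-like site, whose gene lies in the MHC region, did not pass the test. It read 6.27, 8.20, 6.98 and 6.81 for BALB/c and 7.80, 6.77, 6.64 and 7.24 for NOD. Its probe was detected on every array but was dim, with raw signals of 94.7 to 347.4 in BALB/c and 173.5 to 291.8 in NOD. The strains overlapped fully, and the spread within BALB/c (SD 0.82) exceeded the difference of 0.05 ± 0.43 SE (adjusted p = 0.962, limma). The 95% interval, -0.93 to 1.02, does not exclude a change of nearly 1 on the log2 scale in either direction. Psmb9, the partner of Psmb8 and Psmb10 in the immunoproteasome, had no named probe and was not analysed here.

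The PA28 genes did not pass either. Psme2, which encodes the beta subunit of PA28, read 8.29, 10.20, 9.10 and 8.85 for BALB/c and 10.20, 8.70, 9.81 and 9.65 for NOD (difference 0.48 ± 0.45 SE, adjusted p = 0.541, limma). The strains overlapped, with the highest value, 10.20, found in 1 culture of each. RefSeq lists a gene named Psme2b, and whether the probe tells it from Psme2 was not tested. Psme1, the alpha subunit of PA28, was read by 2 probes. The brighter gave 11.69, 11.70, 12.83 and 11.46 in BALB/c and 11.53, 11.79, 11.30 and 11.50 for NOD, and BALB/c culture 3 lay apart above all others. Its difference was -0.39 ± 0.31 SE (adjusted p = 0.465, limma), and that of the second probe was -0.05 ± 0.36 SE (adjusted p = 0.944).

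**Figure D2:**
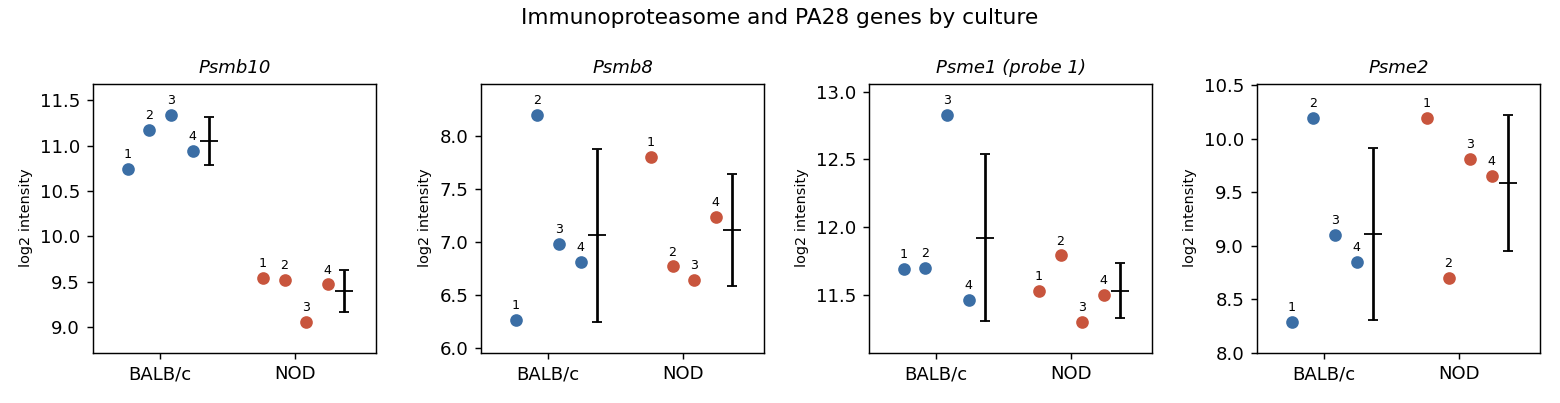
Log2 intensity (y axes, scaled per panel) of Psmb10, Psmb8, Psme1 (brighter and dimmer probes numbered 1 and 2, probe 1 shown) and Psme2 in each BALB/c and NOD culture; numbers are cultures, black marks the mean ± SD of 4. Psmb10 separates the strains (10.74 to 11.34 against 9.06 to 9.54), while Psmb8, Psme1 and Psme2 overlap.

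Thus 1 of 4 tested immunoproteasome and PA28 genes was called, where 9.11% of all named genes tested were called. No statement on the 4 genes as a group is drawn from this count. The strain difference of Psmb10 was set against that of the other 3 within each array. The log2 ratio of the Psmb10 probe to the Psmb8 probe was 3.98 ± 0.69 in BALB/c and 2.29 ± 0.42 in NOD, a shift of -1.70. The dim signal of the Psmb8 probe limits this ratio. The shift was -1.26 against Psme1 and -2.13 against Psme2. For each of the 3 ratios, all BALB/c cultures lay above all NOD cultures. All 3 ratios hold Psmb10 and were chosen after its values had been seen, so they describe these arrays and add no separate support.

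Among BALB/c cultures, Psmb8 and Psme2 were both highest in culture 2 and lowest in culture 1, and among NOD cultures both were highest in culture 1. Their lowest NOD values fell in different cultures, with Psmb8 lowest in culture 3 (6.64, where Psme2 read 9.81) and Psme2 lowest in culture 2 (8.70). Psmb10 was also lowest in BALB/c culture 1 but was highest in culture 3. In BALB/c culture 2 the peptide-loading chaperone gene Tapbp (9.41, against 6.36 to 6.73 in the other BALB/c cultures) was also high. So were dimmer second probes of Psmd2 (9.91, against 6.31 to 6.46) and of the ubiquitin-linked gene Cdc34 (9.38, against 6.81 to 7.98). The brighter Psmd2 probe was lowest in culture 2 (11.08), so high readings in this culture were not limited to immune genes and could differ between probes of a gene. The same culture was highest of its strain for interferon-response genes such as Ifit3 (11.08, against 6.75 to 7.20) and Irf9 (9.64, against 7.49 to 8.68). Other genes of that list went the other way, and Mx2 (7.42), Socs1 (8.26) and Irf1 (10.08) were each lowest of the strain in culture 2. These are descriptions of single cultures chosen after their values were seen, and no test was made.

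Leukocytes hold the immunoproteasome at all times, and their markers differed among the cultures. Of 8 leukocyte marker genes with a named probe, the BALB/c arrays detected 3, 2, 1 and 4 and the NOD arrays 0, 0, 1 and 1. Ptprc, Itgam and the T cell gene Cd3e were detected on no array. The macrophage gene Cd68 was detected on all BALB/c arrays (7.96, 6.92, 6.05 and 9.12) and no NOD array (5.68, 5.41, 5.52 and 5.07), and did not pass the test (adjusted p = 0.0605, limma). Cd68 entered the test only through the strain where it is high, and its NOD values lie at background, so its p-value carries that limit. The normalized intensities of the 8 genes summed to 492, 2990, 157 and 1720 for BALB/c and 171, 130, 392 and 201 for NOD, with most of the 2990 from the lysozyme gene Lyz2. Without Lyz2 the sums were 341, 222, 136 and 792 for BALB/c and 139, 115, 132 and 114 for NOD, so the order of the cultures depended on Lyz2. In a fit without BALB/c cultures 2 and 4 Psmb10 differed by -1.63 (adjusted p = 0.0203, limma). That fit kept BALB/c culture 1, whose sum lay above the NOD range, so it does not decide the part of leukocytes. The part of leukocytes in the difference was not tested. In such bulk samples, fewer cells of a type and less RNA per cell cannot be told apart.

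Of the 3 ATPase (Psmc) and 6 non-ATPase (Psmd) genes tested, Psmd8 and Psmc1 were called higher in NOD MSC. Among all named genes tested 4.12% were called higher, and with so few genes no statement on the 19S particle is drawn. Psmd8, known as Rpn12 in yeast, is a subunit of the lid, the part that takes ubiquitin chains off the substrate. BALB/c arrays gave 10.89, 10.57, 11.30 and 11.28. NOD arrays gave 12.87, 12.92, 12.99 and 12.89, all above every BALB/c culture and close to one another. The means of 11.01 ± 0.35 and 12.92 ± 0.05 differ 3.75-fold (difference 1.91 ± 0.21 SE, 95% interval 1.43 to 2.39, adjusted p = 8.12e-04, limma). The raw signals were 1562.5 to 2286.9 in BALB/c and 7763.1 to 10885.1 in NOD. Psmd8 was called in all 20 alternative fits, with differences of 1.76 to 2.02.

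Psmc1, an ATPase of the ring that docks on the core and known as Rpt2 in yeast, separated BALB/c culture 4 from the other BALB/c cultures. It read 5.17, 4.95 and 5.21 in BALB/c cultures 1 to 3, where it was not detected, and 9.50 in BALB/c culture 4. Every NOD array detected it, at 9.96, 9.35, 10.70 and 10.69. BALB/c culture 4 lay inside the NOD range, so the strains overlapped. The raw signals show the same pattern, with 57.1, 57.3, 61.4 and 546 for BALB/c and 785.3 to 2220.1 in NOD. Psmc1 entered the test through the strain where it is high, so the filter itself favours a difference and the p-value carries that limit. The fitted difference was 3.97 ± 0.96 SE (6.21 ± 2.20 against 10.18 ± 0.65, adjusted p = 0.0387, limma), part of it from values at background. Without BALB/c culture 4 it was 5.08 (adjusted p = 3.17e-04, limma). NOD was then at least 28.4-fold higher when the undetected BALB/c values were raised to the lowest detected value of their array. Leaving out this culture removes the only BALB/c value inside the NOD range, so both results follow from that choice and add no support. The call was lost in 10 of 19 other fits, among them those without BALB/c culture 1 (0.125) or 3 (0.0619), without any 1 NOD culture (0.0678 to 0.130) and when replicate number entered as a block (0.0572). A sequence difference between the strains under the single probes of Psmd8 and Psmc1 was not tested, and BALB/c cultures with and without signal carry the same strain label.

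**Figure D3:**
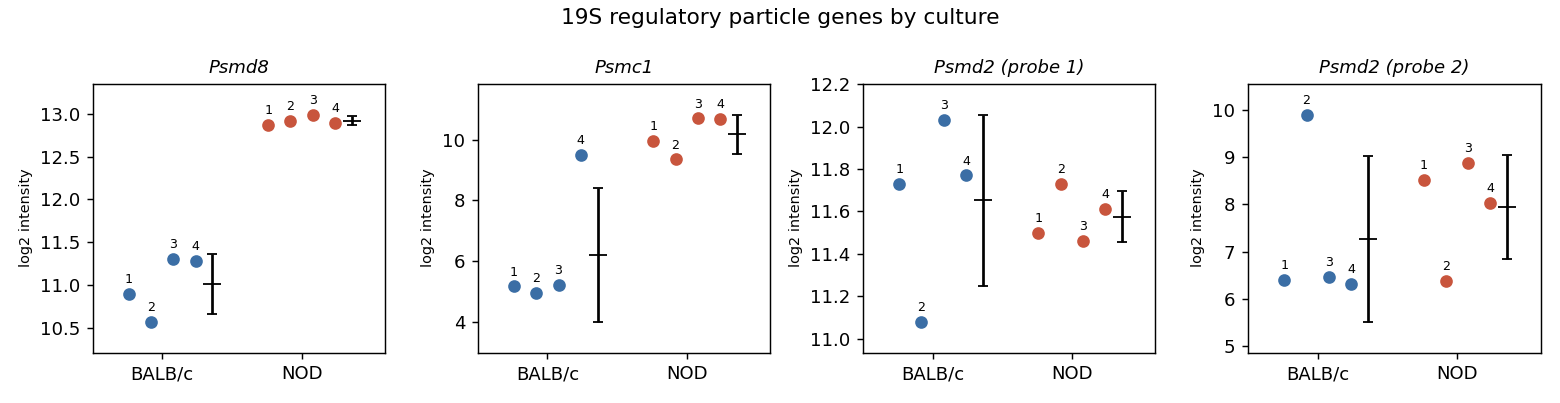
Log2 intensity (y axes, scaled per panel) of Psmd8, Psmc1 and both probes of Psmd2 in each culture; numbers are cultures, black marks the mean ± SD of 4. Psmd8 separates the strains, Psmc1 is at background in BALB/c cultures 1 to 3 and at 9.50 in culture 4, and the second Psmd2 probe ranges from 6.31 to 9.91 within BALB/c where the first ranges from 11.08 to 12.03.

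The other 7 Psmc and Psmd genes tested were not called. Psmc3, an ATPase, read 12.45 ± 0.30 in BALB/c and 12.47 ± 0.12 in NOD, and Psmc6, another, 6.20 ± 0.10 and 6.00 ± 0.23. The scaffold subunit gene Psmd1 read 13.69 ± 0.18 and 13.92 ± 0.15 (difference 0.23 ± 0.18 SE). The lid subunit genes Psmd3 and Psmd11 had differences of -0.31 ± 0.18 SE and -0.43 ± 0.20 SE, the latter from 1 of its 2 probes, since the second was detected on no array. Psmd9, which encodes a chaperone of base assembly, differed by -0.13 ± 0.20 SE.

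Psmd2, a scaffold subunit that receives ubiquitin-binding shuttle proteins, was read by 2 probes that disagreed between cultures. The brighter gave 11.73, 11.08, 12.03 and 11.77 in BALB/c and 11.50, 11.73, 11.46 and 11.61 for NOD (difference -0.08 ± 0.23 SE, adjusted p = 0.864, limma). The second gave 6.40, 9.91, 6.46 and 6.31 in BALB/c and 8.52, 6.38, 8.89 and 8.03 for NOD (difference 0.69 ± 0.87 SE, adjusted p = 0.661). BALB/c culture 2 was thus the lowest BALB/c culture by the first probe and the highest by the second.

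The remaining activator, inhibitor and assembly genes were not called. Psme4, the activator PA200, spread more in BALB/c, at 9.21, 10.12, 10.98 and 9.32 in cultures 1 to 4, than in NOD, at 10.57, 10.19, 10.32 and 10.12 (difference 0.39 ± 0.38 SE, adjusted p = 0.555, limma). Without BALB/c cultures 2 and 3 together, which held its highest BALB/c values, Psme4 differed by 1.04 and was called (adjusted p = 0.00775, limma). In that fit 35.0% of all named genes tested were called. Leaving out culture 2 or culture 3 alone gave no call (adjusted p = 0.449 and 0.103, limma). Psmf1, the inhibitor PI31, read 10.91 ± 0.12 in BALB/c and 11.05 ± 0.23 in NOD (difference 0.13 ± 0.18 SE). The assembly chaperones Psmg1 and Psmg3, which help to build the alpha ring, had differences of 0.24 ± 0.19 SE and 0.35 ± 0.21 SE. Psme3ip1, the gene that is no subunit, read 11.00 ± 0.14 and 10.38 ± 0.25, with no overlap between strains (difference -0.61 ± 0.19 SE, adjusted p = 0.0852, limma).

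**Figure D4:**
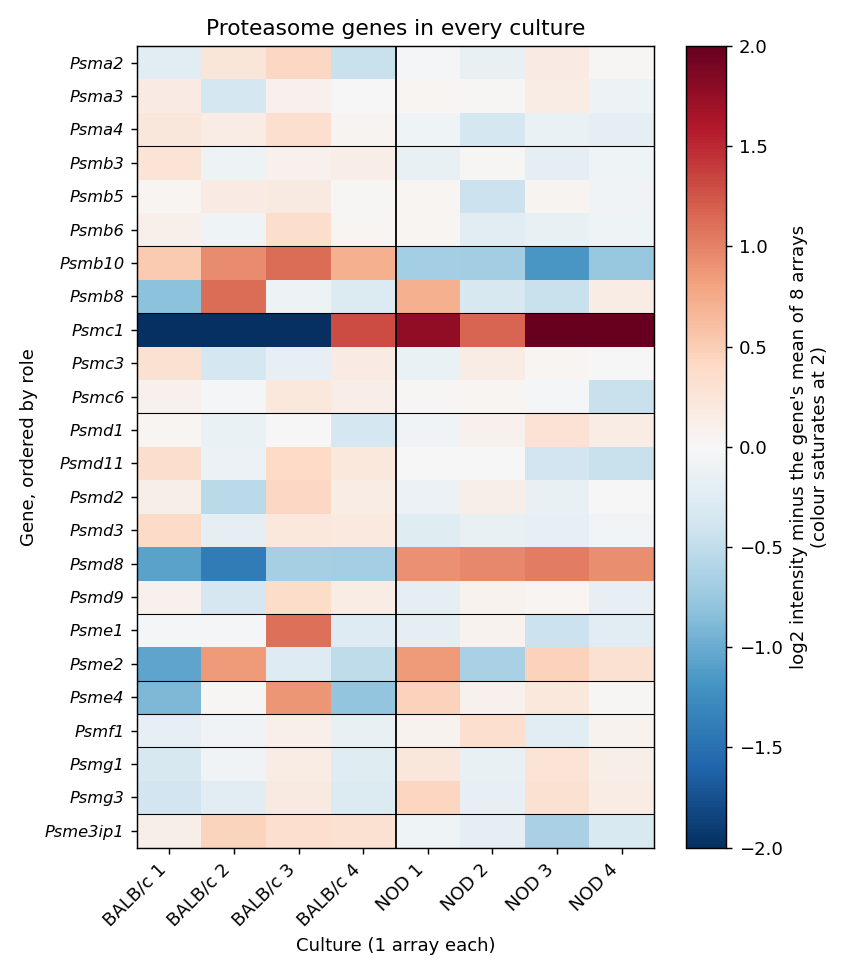
Log2 intensity of each tested gene (rows, ordered by role) in each culture (columns) minus the gene's mean over the 8 arrays; colours saturate at 2. Psmb10, Psmd8 and Psmc1 show the contrast between strains apart from BALB/c culture 4 for Psmc1, and Psmb8, Psme1, Psme2 and Psme4 vary among BALB/c cultures.

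The variation within BALB/c was thus uneven over the genes. Its SD was largest for Psmc1 at 2.20, with culture 4 apart from the rest, and was 0.27 for Psmb10. It was 0.82 for Psmb8, 0.80 for Psme2, 0.62 for Psme1 and 0.82 for Psme4, against 0.09 to 0.40 for the 6 core genes tested. In NOD the SD was 0.65 for Psmc1, 0.23 for Psmb10, 0.52 for Psmb8, 0.64 for Psme2, 0.20 for Psme1 and 0.20 for Psme4, against 0.09 to 0.22 for the core. No test was made of these spreads. The median deviation of the 6 core genes from their means over all arrays ran from 0.03 to 0.27 in the BALB/c cultures and from -0.18 to 0.00 in the NOD cultures.

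Genes that work with the proteasome were read from lists chosen with earlier results in view. Of 19 tested ubiquitin and proteasome-linked genes, limma called 1 lower and none higher, where 9.11% of all named genes tested were called, and the median difference was -0.19. It was Vcp, the ATPase that pulls ubiquitin-tagged proteins out of complexes and membranes, at 13.77 ± 0.17 in BALB/c and 13.10 ± 0.04 in NOD (1.58-fold, adjusted p = 0.0436, limma; lost in 9 of 20 other fits). At an unadjusted p under 0.05 the list had 2 genes of 19, where the share over all named genes tested was 27.5%. The ubiquitin precursor genes Ubb and Rps27a had differences of -0.19 and 0.05. The transcription factor gene Nfe2l1, whose product raises proteasome subunit genes when the proteasome is inhibited, read 13.48 ± 0.57 and 12.97 ± 0.36 (adjusted p = 0.354, limma). Adrm1, a ubiquitin receptor of the 19S particle, read 10.63 ± 0.16 and 10.68 ± 0.19 by its brighter probe. A second Adrm1 probe, detected on 1 BALB/c and 3 NOD arrays, read 5.85 ± 1.01 and 6.42 ± 0.84 (difference 0.57 ± 0.56 SE). The proteasome-bound deubiquitinase gene Uchl5 read 9.35 ± 0.24 and 9.34 ± 0.08.

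Of 3 tested genes for making and loading class I peptides (B2m, Tapbp and Ide), limma called none, and 1, Ide, had an unadjusted p under 0.05. Among all named genes tested 9.11% were called and 27.5% had an unadjusted p under 0.05, so nothing is drawn from this count. Of 11 tested interferon-response genes, limma called 4 lower (Gbp2b, Mx2, Igtp and Irf1) and 1 higher, where 4.99% of all named genes tested were called lower and 4.12% higher. The median difference of the 11 was -0.71. Gbp2b was detected on 4 BALB/c and 2 NOD arrays and Mx2 on 4 and 1, so both entered the test through the strain where they are high. The call of Igtp was lost in 6 of 20 other fits. Irf1, a transcription factor that acts on immunoproteasome genes, read 12.45, 10.08, 11.05 and 11.81 for BALB/c and 9.49, 10.03, 9.07 and 9.47 for NOD. The groups did not overlap, although BALB/c culture 2 lay just above NOD culture 2, and the call stood at the threshold (adjusted p = 0.0494, limma; lost in 13 of 20 other fits). In BALB/c culture 2 Irf1 was lowest and Psmb8 highest within the strain. The gene that was higher was Jak2, a kinase of the interferon gamma receptor, at 9.36 ± 0.41 in BALB/c and 10.69 ± 0.35 in NOD (2.52-fold, adjusted p = 0.0188, limma; lost in 6 of 20 other fits).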

How the data were processed

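The deposited table gave for each of 46628 probes and 8 arrays a mean signal intensity averaged over beads, not normalized per the file headers, and a detection p-value, also deposited. A second deposited table held the authors' normalized intensity on a linear scale (column medians of 73.6 to 76.6), in the same rank order as the raw signal on each array (Spearman correlation 1.00). The sources used here do not give its centring, the array model, slide positions or scan dates. Probe names with a zero-padded number were read as gene IDs and named through RefSeq (GRCm38.p6), and together with a few probes named by accession or symbol this named 9806 probes. Replicates are cultures with separate sample labels.

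Background was corrected by normexp from the inferred negative controls (1603 by the p-value steps) with an offset of 16, after 4 or 5 detection p-values per array that lay below 1 step had been set to 0. Quantile normalization on the linear scale followed, and log2 was taken afterwards. Control, reporter and unresolved numeric probes (365) were left out. The fit used lmFit and eBayes (R 4.3.3, limma 3.58.1) on 17775 probes detected on at least 4 arrays, and the brightest tested probe stood for a gene. The scripts were tested on simulated data. All members are described, in full by array where called or of the immunoproteasome, and otherwise by group. The members and lists were chosen with earlier results of these data known. The alternatives were other backgrounds, scalings, filters, weights, a replicate block and left-out cultures. The number of arrays limits the precision. Some genes of the lists are not reported here by name.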

Additional observations from a re-analysis of the deposited data

Results flagged for a closer look

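Among 52 sets of 4 arrays examined 4 held a culture far from the other 3 by Dixon's ratio, where chance flags about 1 in 20 sets. Psmc1 in BALB/c culture 4 read 9.50 against 4.95 to 5.21 in the other BALB/c cultures. The second Psmd2 probe in BALB/c culture 2 read 9.91 against 6.31 to 6.46. Psmb10 in NOD culture 3 read 9.06 against 9.47 to 9.54, and Psmc6 in NOD culture 4 read 5.66 against 6.08 to 6.15.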

How the results depend on the processing

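Over 20 alternatives, Psmb10 and Psmd8 were called in each. The number of proteasome genes called was 3 in the reported fit and 2 to 3 in all alternatives but one, and without any single culture it was 2 to 3. The exception was array weights, with 12 proteasome and 2 immunoproteasome and PA28 genes called, where 57.8% of all named genes were called and NOD culture 4 received a weight of 25.3. The weight estimation stopped before its tolerance was reached. The immunoproteasome and PA28 count stayed at 1 in the other alternatives and without any single culture (1 to 1). When deposited detection p-values were kept unaltered, Psma4 was called (-0.39, adjusted p = 0.0425) and Psmc1 was not (2.00, adjusted p = 0.0635). The cause was not tested. The count over all named genes was 385 in the reported fit, 135 to 798 without 1 culture, 215 among probes detected on all arrays, 1420 without BALB/c cultures 2 and 3 and 130 with the replicate block. The replicate numbers share no stated source, and the deviations of same-numbered arrays correlated at -0.639 to 0.0807, so the block is not a pairing. With it 2 proteasome genes were called, Psmb10 (-1.65, adjusted p = 0.0414) and Psmd8 (1.91, adjusted p = 0.0198). Median scaling moved the median difference of all probes to 0.15 and the share of calls higher in NOD from 45.2% to 60.7%, with the same 3 proteasome genes called. The differences of 6 proteasome genes changed sign in at least 1 alternative (Psma2, Psma3, Psmb8, Psmc3, Psmd2 and Psmd9), none of them ever called. Psma5, Psmc6 and Psmd11 lie at or near background, as does Psmb8 in its dimmest cultures, which limits what their probes can show.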
